A study of Homo sapiens with 12 samples.

Results

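BoM-1833 is a human triple-negative breast cancer cell line with tropism for bone, and its response to small interfering RNA (siRNA) against PHF19 is described here over all genes tested. The comparison comprised 6 of the 12 libraries of the series, chosen by their sample titles: 3 from cells given siPHF19 and 3 from cells given a non-targeting control (siNT). The control was the ON-TARGETplus non-targeting pool of Dharmacon, and siPHF19 was a 1:1 mixture of the Silencer Select siRNAs ss#1 and ss#2 of ThermoFisher Scientific. Both groups were reverse transfected with Lipofectamine RNAiMAX at 5 nM siRNA in total, grown in DMEM with 10% FCS, and harvested at 72 h. The siRNAs of the groups therefore differed in supplier and product line as well as in target. Only 1 cell line was used in this comparison, the 2 PHF19 siRNAs were not given separately, and the labels do not say whether the 3 libraries of a group came from separate cultures. P-values then measure only the spread between these libraries, which may be technical.

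PHF19 is one of the Polycomb-like proteins, accessory subunits of Polycomb repressive complex 2 (PRC2). PRC2 methylates lysine 27 of histone H3 through its catalytic subunit EZH2 or EZH1, and the mark goes with silencing of developmental genes. PHF19 binds CpG-rich DNA and, through its Tudor domain, histone H3 methylated at lysine 36, and helps to bring PRC2 to chromatin. In breast cancer cells the complex has been studied for its part in growth, differentiation state and motility.

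The markers of the cells were checked against the label. ESR1 and PGR, which encode the estrogen and progesterone receptors, had at most 3.97 normalized counts in any library. ERBB2, the receptor whose amplification the triple-negative class lacks, was read at 1004 to 1152 normalized counts. VIM, AXL and CD44, which are high in basal and mesenchymal breast cancer cells, were read in all 6 libraries. CDH1, the epithelial cadherin, lay between 4.61 and 27.6 normalized counts. The epithelial keratins KRT8 and KRT18, by contrast, were abundant, and SPARC, listed as a mesenchymal marker, reached no more than 33.0. EPCAM, GATA3 and FOXA1, listed as low or absent in such cells, were read at 85.4 to 138, 131 to 164 and 28.6 to 52.9. Of the listed bone-tropism genes, SPP1 reached no more than 1.20, while CXCR4, IL11, CTGF and MMP1 were read in all 6 libraries. Of 17 markers of other cells, CD68 of macrophages (2965 to 3337), RUNX2 of osteoblasts (506 to 636), COL1A1 of fibroblasts and PECAM1 of endothelium (280.2 to 404) stood highest, and the other 13 stayed at or below 32.5. Among those, CD3E of T cells, DCN of fibroblasts and SP7 of osteoblasts were at 0 in every library, and PTPRC, the leukocyte antigen CD45, lay between 14.9 and 21.2 in both groups. COL1A1 was read without its partner chain COL1A2, which was at 0 in 5 libraries. Reads assigned to genes came to 18.9 ± 2.01 M (SD, n = 3) in the siNT libraries and 14.8 ± 1.55 M (SD, n = 3) in the siPHF19 libraries. The first principal component of the libraries held 42.7% of the variance and separated the groups. The second held 22.8% and set siNT replicate 1 apart from the other siNT libraries. That library had the highest share of ribosomal RNA reads, 2.40% against 0.600% to 1.45% in the others. It also read short transcripts higher and long ones lower than its group: its median deviation was 0.17 (log2) in the shortest of 5 equal transcript length classes and -0.20 in the longest. Several results that this library moves are given with and without it, and other list counts only as a range over the fits that leave out 1 library.

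A gene was called when its adjusted p was under 0.05 in DESeq2's Wald test on reads recovered from the deposited values. Of 12906 genes tested, 1411 were called, 10.9% in all, with 673 higher after siPHF19 (5.21%) and 738 lower (5.72%). In 1376 of the called genes the 3 siPHF19 libraries did not overlap the 3 siNT libraries, and in 35 they did. Over all tested genes, called or not, the groups did not overlap in 3995 (31.0%). Most differences were small. The median absolute log2 fold change of the called genes was 0.37, against 0.12 over all tested genes, whose median signed log2 fold change was -0.00. Of the called genes, 30 were higher and 39 lower by an absolute log2 fold change of at least 1. The share of genes called was larger at higher counts, from 2.42% of genes called below a mean of 50 normalized counts to 27.8% above 10000. Leaving out 1 library at a time gave 2046 calls without siNT replicate 1, 880 without siNT replicate 2 and 1049 without siNT replicate 3. It gave 886, 746 and 832 calls without siPHF19 replicates 1, 2 and 3. In all 6 of these fits 607 genes were called, 276 of them higher and 331 lower. Below, a gene given "at" a value is at that log2 fold change of siPHF19 over siNT, with its standard error (SE), and "kept in k of 6" marks a gene whose call was lost in some of these fits, and a gene without this mark was called in each of them. Counts of list members carry their range over the same 6 fits, and where leaving out a library moved a count of 5 or more by over 1.5 times, that library is named.

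**Figure D1:**
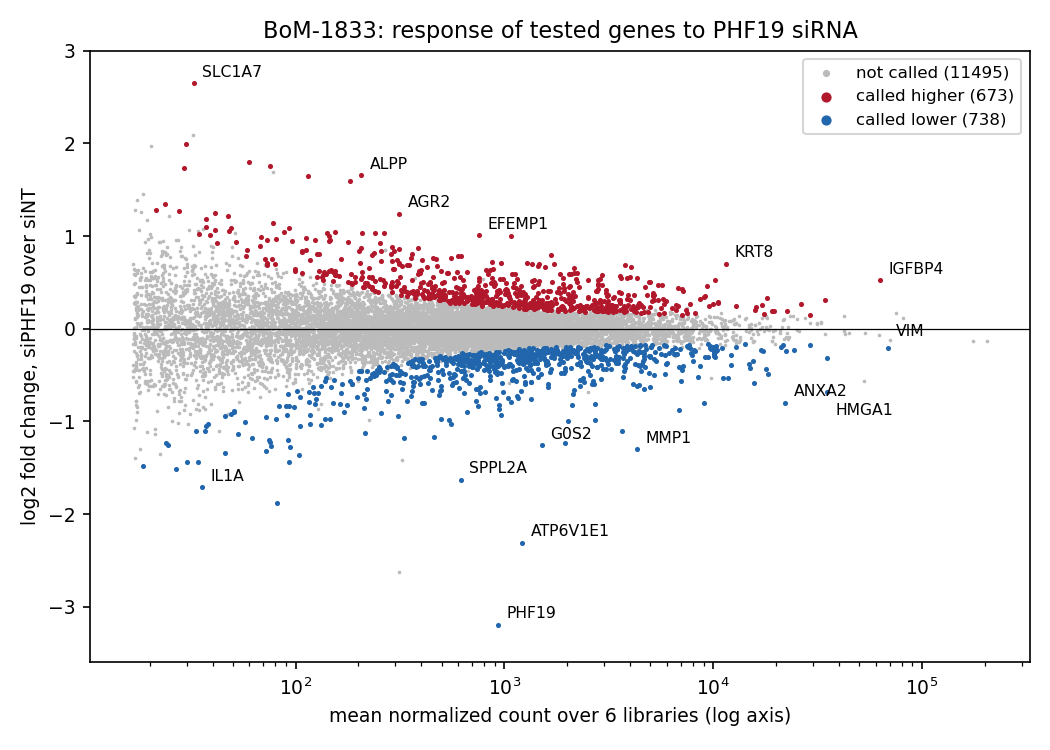
Each point is 1 of the 12906 tested genes, by its mean normalized count over 6 libraries (log axis) and its log2 fold change of siPHF19 over siNT; red and blue points were called higher (673) and lower (738), and 3 genes lie outside the vertical axis. PHF19, ATP6V1E1 and SPPL2A stand below the other called genes of like count, while most called genes lie within 1 log2 unit of 0.

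PHF19 itself was lowered in every siPHF19 library. The gene spans 120855652 to 120894896 of chromosome 9, minus strand (GRCh38). Control libraries read 1711, 1684 and 1669 normalized counts, and knockdown libraries 181, 200.51 and 173, in the order of replicates. The groups were far apart and each varied little. The log2 fold change was -3.19 (SE 0.10) and the adjusted p 1.53e-218 (DESeq2), so that 10.9% of the control level remained. An exact 2-sided permutation test on this gene alone gave p = 0.1, the smallest that 3 against 3 libraries allow.

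The other subunits of PRC2 moved little. Of 14 tested genes of PRC2, PHF19 included, 0 were called higher and 3 lower by DESeq2 (0 higher by edgeR and 1 at an unadjusted p under 0.05, median log2 fold change -0.02, 0 to 1 higher and 1 to 3 lower in the fits without 1 library). The other 2 were C17orf96, the older symbol of EPOP, at -0.37 (SE 0.12, kept in 1 of 6) and AEBP2 at -0.36 (SE 0.12, kept in 2 of 6), accessory subunits of the 2.1 and 2.2 forms of the complex. The catalytic subunit EZH2 read 1091, 1024 and 1073 in siNT and 1193, 1256 and 1213 in siPHF19, with a log2 fold change of 0.20 (SE 0.08) and an adjusted p of 0.076 (DESeq2), above the threshold. The core subunits SUZ12, EED and RBBP4 stood at -0.10, 0.19 and 0.03, and the Polycomb-like paralogs MTF2 and PHF1 at 0.13 and 0.06; none of these 5 was called. Among 24 genes of PRC1, the complex that ubiquitinates histone H2A, 2 were called higher and 0 lower by DESeq2 (0 lower by edgeR and 1 at an unadjusted p under 0.05, median log2 fold change 0.01, 0 to 2 higher and 0 to 1 lower in the fits without 1 library): BMI1 at 0.32 (SE 0.10, kept in 4 of 6) and PCGF3 at 0.24 (SE 0.08, kept in 1 of 6). The annotated span of BMI1 overlaps the entry COMMD3-BMI1 on the same strand, which stood at -0.45 with a mean of 667 normalized counts. Reads of this pair cannot be told apart with certainty. Among 13 enzymes that write or erase methylation at lysines 27 and 36 of histone H3, KDM4A alone was called, at -0.28 (SE 0.09, kept in 3 of 6, median log2 fold change -0.04, 0 higher and 0 to 4 lower in the fits without 1 library, with 4 lower without siNT replicate 1). HOX and other developmental transcription factor genes are the textbook targets of PRC2. Most of those listed had too few reads to be tested. Calls came to 12.5% of tested HOX genes and 6.90% of the other tested factors, beside 10.9% of all tested genes. Of 39 listed HOX genes, 8 had enough reads to be tested, and 1, HOXB3, was called lower at -0.71 (SE 0.24, kept in 1 of 6, median log2 fold change -0.19, 0 higher and 0 to 1 lower in the fits without 1 library). Of 79 developmental transcription factors 29 were tested. SIX2, a homeobox factor, rose from 152, 172 and 139 to 264, 249 and 243 normalized counts, at 0.71 (SE 0.15), and SOX9 fell at -0.26 (SE 0.07, kept in 4 of 6, median log2 fold change -0.00, 1 to 2 higher and 0 to 2 lower in the fits without 1 library).

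The genes with the largest fold increase among those with a mean of at least 100 normalized counts included ALPP, C4A, C4B, AGR2, CYP1A1, RAB17, VASN, PRSS2, MATN2, EFEMP1 and SYT12. ALPP, the placental alkaline phosphatase, read 96.0, 117 and 84.0 in the control libraries and 274, 344 and 322 after siPHF19, a log2 fold change of 1.66 (SE 0.17). C4B, which encodes complement component 4, read 89.7, 96.8 and 84.9 and then 275, 293 and 252, a log2 fold change of 1.60 (SE 0.16). Its near-identical neighbour C4A read 50.01, 24.0 and 93.5 and 235, 157 and 131, at 1.65 (SE 0.58, kept in 2 of 6), and reads of the pair cannot be told apart with certainty. The same limit holds for ALPP and PRSS2, a trypsinogen, which have close copies. AGR2, a protein disulfide isomerase of secretory epithelium, rose from 202, 165 and 192 to 424, 471 and 431. EFEMP1, the matrix protein fibulin 3, rose from 502, 523 and 487 to 975, 960.1 and 1108, and MATN2, matrilin 2, from 134, 181 and 157 to 327, 302 and 334. In each of these genes the lowest siPHF19 library lay above the highest siNT library, as the choice of genes required. CYP1A1, a cytochrome P450 induced through the aryl hydrocarbon receptor, stood at 1.05 (SE 0.17), RAB17, an epithelial Rab GTPase, at 1.04 (SE 0.15), VASN at 1.03 (SE 0.19) and SYT12 at 1.00 (SE 0.19). Below the count minimum, SLC1A7, a glutamate transporter, had the largest increase of the called genes, from 7.14, 6.46 and 13.4 to 48.7, 51.9 and 67.3, at 2.65 (SE 0.42, kept in 5 of 6). Of the called genes with fewer counts, named after their values were seen, SPTSSB, a small subunit of serine palmitoyltransferase, rose from 26.99, 29.5 and 23.8 to 88.4, 95.5 and 96.1, at 1.80 (SE 0.28). PLEKHS1 rose from 31.0, 29.5 and 42.9 to 109, 106 and 133, at 1.76 (SE 0.26).

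On the lower side the largest fold changes after PHF19 belonged to ATP6V1E1, SPPL2A, MPP4, MMP1, G0S2, CST4, AMMECR1, PTGS2, CLMP, CST1 and MAP3K7CL. ATP6V1E1, the E subunit of the proton pump of endosomes and lysosomes, fell from 2163, 1984 and 1918 in the control libraries to 415, 435 and 375 after siPHF19. Its log2 fold change was -2.31 (SE 0.09) with an adjusted p of 2.83e-142 (DESeq2), the next in size after PHF19 among genes above the count minimum. SPPL2A, an intramembrane aspartyl protease of lysosomes, fell from 955, 907 and 943 to 335, 275 and 297, at -1.63 (SE 0.10). In both genes all siPHF19 libraries lay below 50% of every siNT library. MMP1, the interstitial collagenase, read 6025, 5911 and 6449.9 and then 2561, 2404 and 2490.2, a log2 fold change of -1.30 (SE 0.06). G0S2, an inhibitor of the lipase ATGL, read 2352, 2086 and 1941 and then 797, 896 and 977, at -1.26 (SE 0.09). PTGS2, the inducible cyclooxygenase COX-2, read 506, 663 and 736 and then 338, 261 and 247, at -1.17 (SE 0.15). Its libraries varied more within groups than those of MMP1, without overlap. CST1 and CST4, secreted cysteine protease inhibitors that are close paralogs, stood at -1.10 (SE 0.20) and -1.23 (SE 0.19). The adhesion molecule CLMP stood at -1.13 (SE 0.16), the scaffold gene MPP4 at -1.36 (SE 0.22), AMMECR1 at -1.18 (SE 0.13) and MAP3K7CL at -1.05 (SE 0.22). Below the count minimum, and named after its value was seen, MSMP, a secreted microseminoprotein, fell from 145, 94.98 and 142 to 34.8, 42.5 and 26.4, at -1.88 (SE 0.27). LOC102723360 was called lower (kept in 3 of 6) with 23.0, 9.22 and 109 in siNT and 0 in every siPHF19 library.

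**Figure D2:**
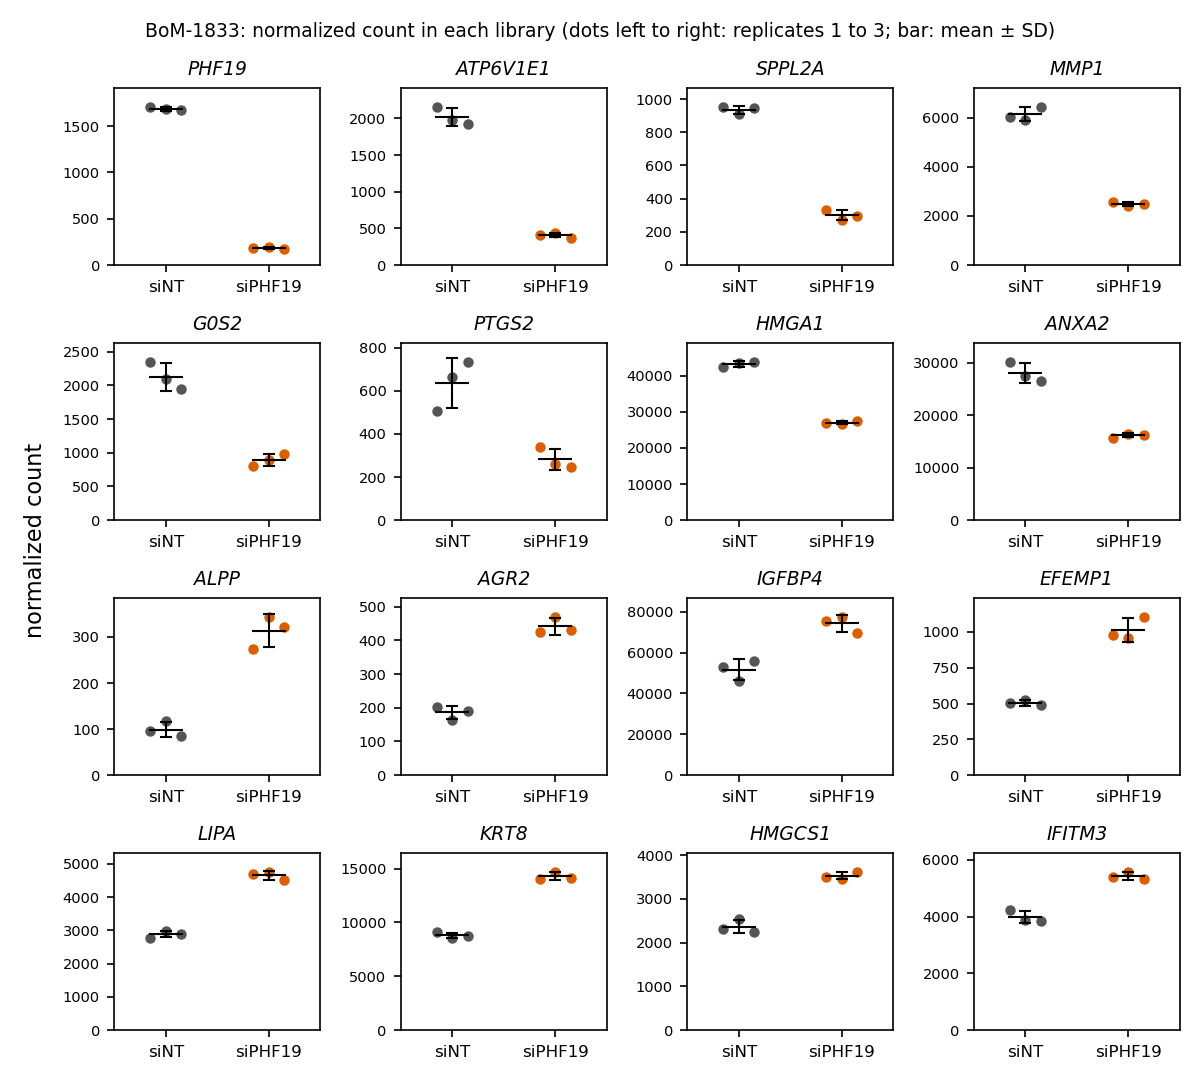
Normalized counts of 16 genes in each library, with dots for siNT and siPHF19 replicates 1 to 3 from left to right and bars for mean ± SD (n = 3); every axis starts at 0. In each panel the groups do not overlap, with PHF19 falling to 10.9% of its control level.

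The genes with the largest absolute differences follow. These differences are in normalized counts, which grow with transcript length as well as with abundance. IGFBP4, a secreted binding protein of insulin-like growth factors, gained the most, 22608 normalized counts on average, from 53142, 46070.4 and 55758 in siNT to 75601, 77648 and 69545 in siPHF19. ACTG1, cytoplasmic gamma actin, gained 7247 at a log2 fold change of 0.31. KRT8, a keratin of simple epithelium, rose from 9079, 8550.5 and 8751 to 14071, 14729 and 14133, at 0.70 (SE 0.05), and its partner KRT18 rose at 0.46 (SE 0.06); the annotated spans of KRT8 and KRT18 overlap on opposite strands. ITGA3, FASN and HMGB3, which encode an integrin chain, fatty acid synthase and an HMG-box protein, rose at 0.27, 0.33 and 0.53. PXDN, TMSB4X and CALR stood at 0.26 (kept in 2 of 6), 0.19 (kept in 1 of 6) and 0.15 (kept in 1 of 6). HMGA1, an architectural chromatin protein, had the largest loss and fell by 16266 normalized counts, from 42282, 43462 and 43863 to 26839, 26605 and 27366. ANXA2, a membrane-bound calcium-dependent protein and plasminogen receptor, fell from 30260.5, 27522 and 26542 to 15734, 16495 and 16274, at -0.80 (SE 0.06). TMBIM6, an inhibitor of cell death at the endoplasmic reticulum, fell from 11403, 11719 and 11539 to 6735, 6729 and 6405, at -0.80 (SE 0.05). VIM fell at -0.21 (SE 0.05, kept in 5 of 6), TPM4 at -0.58, HSP90AA1 at -0.31, ERRFI1, an inhibitor of the EGF receptor, at -0.43, and NT5E, the ectonucleotidase CD73, at -0.53. DYNC1H1, the dynein heavy chain and a long transcript, fell at -0.49, or -0.60 without siNT replicate 1.

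Gene lists are read below against the shares of all tested genes, 5.21% higher and 5.72% lower. The list with the largest share of calls was that of sterol synthesis and uptake, with 80% of its members called higher. Of 73 histone genes 8 were tested, and 0 were called by DESeq2 (1 at an unadjusted p under 0.05 and 0 by edgeR). With 8 genes, 0 calls cannot be told apart from the 10.9% called over all tested genes.

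**Figure D3:**
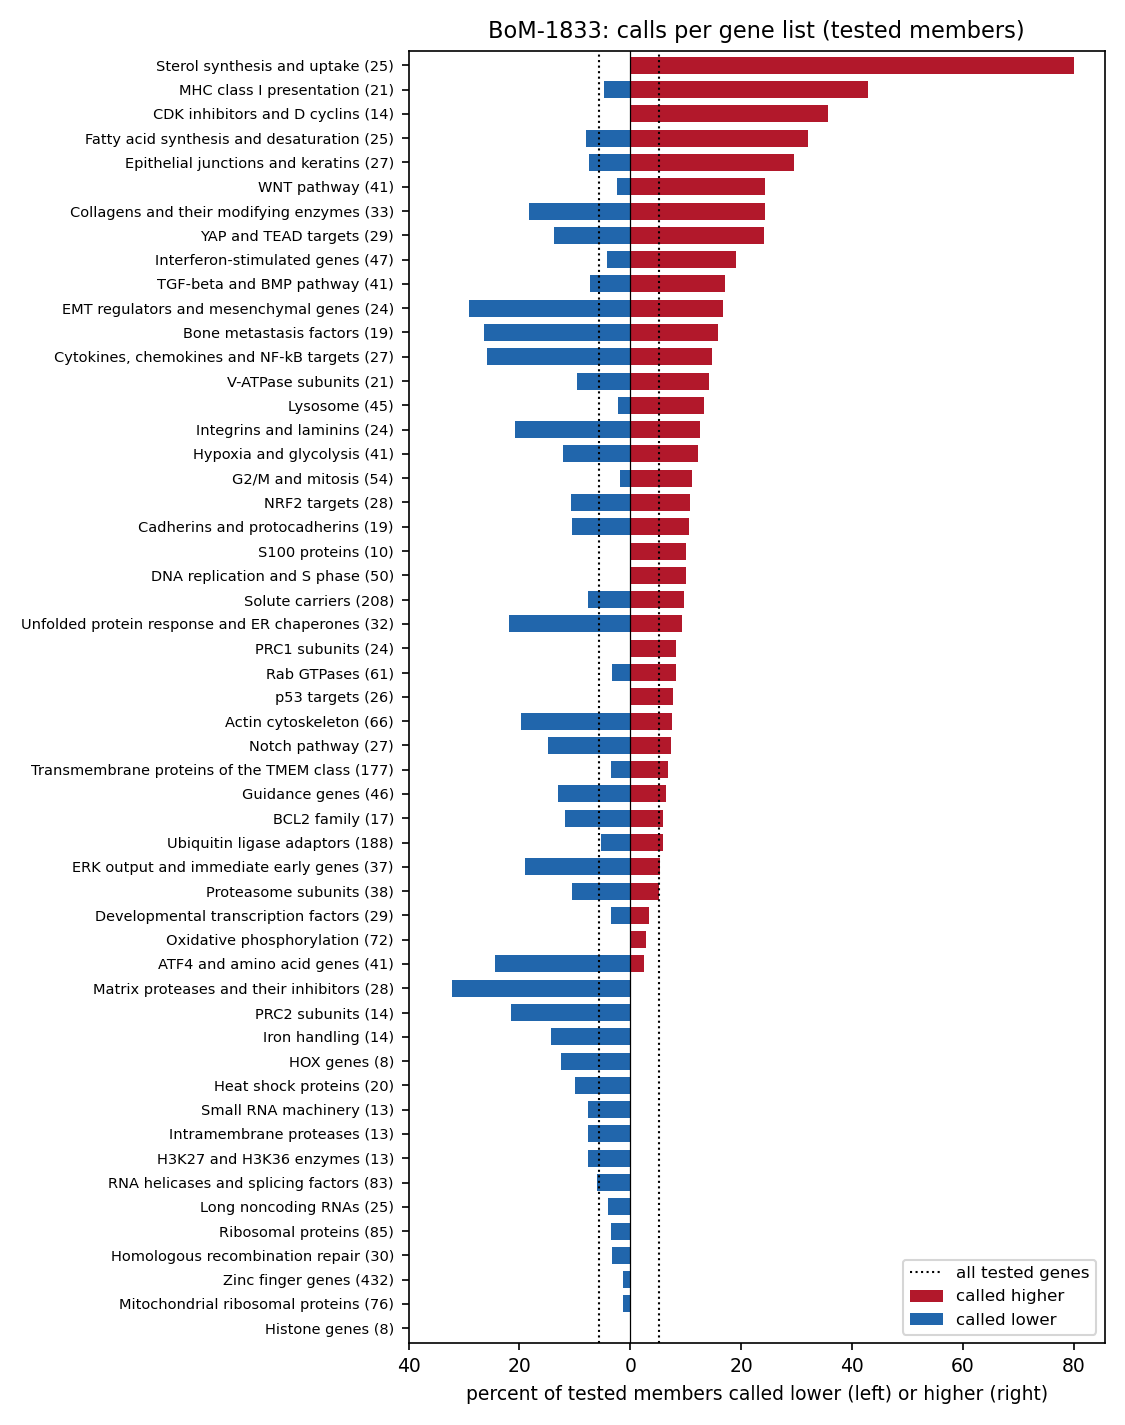
For each gene list (number of tested members in brackets), the bars give the percent of tested members called higher (right) or lower (left), and dotted lines give the shares over all 12906 tested genes, 5.21% and 5.72%. Sterol synthesis, antigen presentation and CDK inhibitor genes extend farthest to the right, and matrix proteases farthest to the left.

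Most genes of cholesterol synthesis and uptake rose. Their promoters are bound by the SREBP factors, which are processed when membrane sterol is low and act together with NF-Y, a factor that binds the CCAAT box. Of 25 genes, 20 were called higher and 0 lower by DESeq2 (0 lower by edgeR and 0 at an unadjusted p under 0.05, median log2 fold change 0.28, 13 to 20 higher and 0 lower in the fits without 1 library, with 13 higher without siPHF19 replicate 2). Each difference was modest. HMGCS1, which makes HMG-CoA, read 2303, 2542 and 2255 in siNT and 3509, 3463 and 3628 in siPHF19, a log2 fold change of 0.58 (SE 0.07). DHCR7, which catalyses the last step of cholesterol synthesis, rose from 2294, 2305 and 2424 to 3139, 3229 and 3376, at 0.47 (SE 0.06). Other members are named after their values were seen. Among them were SQLE, which makes squalene epoxide, at 0.40 (SE 0.07) and SREBF2, the main sterol-regulated SREBP, at 0.18 (SE 0.06, kept in 2 of 6). INSIG1, which retains SREBP in the endoplasmic reticulum, read 4654, 4647 and 4872 and 4927, 5431 and 5229 and was not called, at 0.14 (SE 0.06), and PMVK, at -0.03, was the 1 member below 0. Fatty acid genes moved less uniformly. Of 25, 8 were called higher and 2 lower (median log2 fold change 0.13, 5 to 9 higher and 2 to 3 lower in the fits without 1 library, with 5 higher without siPHF19 replicate 3). FASN, ELOVL6, an elongase, and ACSS2, an acetyl-CoA synthetase, rose at 0.33, 0.37 (SE 0.07) and 0.44 (SE 0.07). TMEM97, a membrane protein of sterol transport, rose at 0.53 (SE 0.09). SCD5, a desaturase, and ACSL4, which activates polyunsaturated fatty acids, fell at -0.53 (SE 0.11) and -0.45 (SE 0.07), while the desaturase SCD and the citrate lyase ACLY, both named after their values were seen, at 0.13 and -0.01, were not called.

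**Figure D4:**
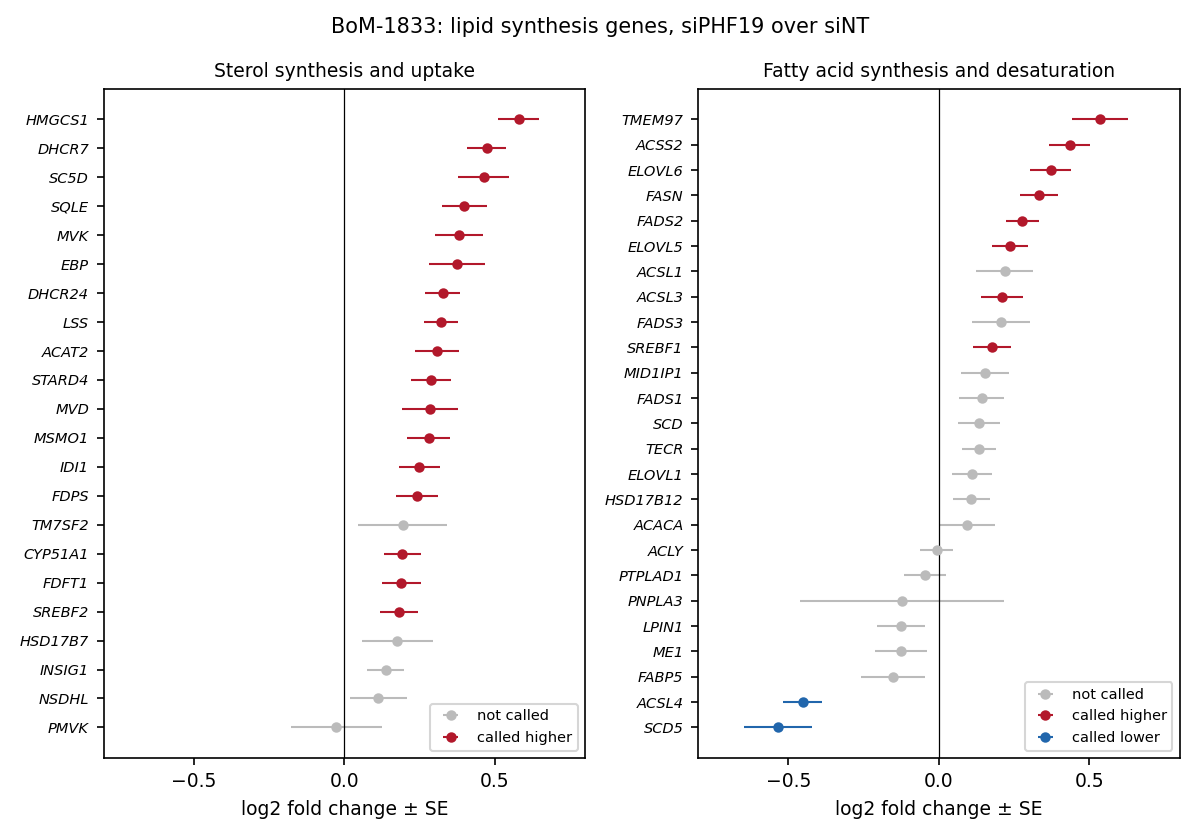
Log2 fold change of siPHF19 over siNT with its standard error for 22 of the 25 tested members of the sterol list (left) and every tested member of the fatty acid list (right). All sterol genes shown but PMVK lie above 0, and 20 of the 25 in the list were called higher, whereas 8 of the 25 fatty acid genes were called higher and 2 lower.

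Since most sterol genes rose together, their promoters were searched for CCAAT on both strands, from 250 bases before to 50 after each gene's start (RefSeq, GRCh38.p14). Of 18 list members with a promoter in the table, 16 held the motif at a listed start, against 39.7% of 27305 genes with a promoter in the table and 43.8% of those tested here. The stretch before the HMGCS1 start, the sterol gene with the largest fold change, is shown because it holds 2 matches. It lies at chr5:43313488-43313587 on the minus strand, 175 to 76 bases before the start, and capitals mark the matches, which read ATTGG on this strand.
HMGCS1: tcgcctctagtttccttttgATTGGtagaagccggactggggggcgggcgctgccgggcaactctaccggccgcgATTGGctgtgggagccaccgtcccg

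Interferon-stimulated and antigen presentation genes were raised in part. These genes are switched on by STAT and IRF factors and display or restrict viral products. Of 47 interferon-stimulated genes, 9 were called higher and 2 lower (median log2 fold change 0.14, 5 to 9 higher and 0 to 3 lower in the fits without 1 library, with 5 higher without any 1 of siNT replicate 2 and siPHF19 replicates 1 and 2). IFITM3, an antiviral membrane protein, read 4223, 3895 and 3854 in siNT and 5381, 5589.5 and 5341 in siPHF19, at 0.45 (SE 0.06). IFITM1, its paralog with a similar sequence, read 358, 355 and 362 and 514, 507 and 479, at 0.48 (SE 0.11). PARP9 stood at 0.46 (SE 0.15, kept in 2 of 6), and OAS3, an RNA sensor picked after its value was seen, at 0.43 (SE 0.10). DDX58, the sensor RIG-I, and the DNA sensor IFI16 were called lower, at -0.23 (SE 0.07, kept in 3 of 6) and -0.21 (SE 0.06, kept in 1 of 6). Of 21 genes of MHC class I presentation, 9 were called higher and 1 lower (median log2 fold change 0.15, 2 to 12 higher and 0 to 2 lower in the fits without 1 library, with 2 higher without siPHF19 replicate 2, 3 higher without any 1 of siNT replicate 2 and siPHF19 replicates 1 and 3, 4 higher without siNT replicate 3). TAPBP, the peptide editor tapasin, rose from 4395, 4283 and 4689 to 5973, 5787 and 5737, at 0.39 (SE 0.06). HLA-F, at low counts of 27.8, 21.2 and 23.8 and 53.6, 68.4 and 51.7, stood at 1.25 (SE 0.33, kept in 4 of 6), and PSMB9, an immunoproteasome subunit that overlaps TAP1 and PSMB8, at 0.34 (SE 0.11, kept in 1 of 6). B2M, the invariant chain of class I molecules, picked after its value was seen, stood at 0.26 (SE 0.06). CANX, a chaperone of their folding, fell at -0.18 (SE 0.05, kept in 2 of 6). The shared motif of interferon response promoters, GAAA followed after any 2 bases by GAAA, on either strand, was in 28 of 40 interferon-stimulated genes with a promoter in the table and in 11 of 18 class I genes, against 4.38% of all genes there. Of the interferon-stimulated genes called higher, 6 had a promoter in the table and 5 held it, and of the class I genes called higher 5 of 9 held it. The IFITM3 promoter is shown for its 2 matches, in capitals, at chr11:320866-320932 on the minus strand, 72 to 6 bases before the start.
IFITM3: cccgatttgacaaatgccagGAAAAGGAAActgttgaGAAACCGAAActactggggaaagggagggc

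Inflammatory cytokine genes, by contrast, were mostly lower where they were called. Of 27 cytokine, chemokine and NF-kB target genes, 4 were called higher and 7 lower (median log2 fold change -0.02, 2 to 5 higher and 6 to 7 lower in the fits without 1 library). IL1B read 125, 129 and 144 in siNT and 65.6, 56.6 and 40.8 in siPHF19, at -1.28 (SE 0.23). IL1A, the other interleukin 1 gene, read 54.8, 61.8 and 46.7 and 18.9, 16.5 and 14.4, at -1.71 (SE 0.37, kept in 4 of 6). IL8 (CXCL8), a neutrophil chemokine, and LIF, both picked after their values were seen, stood at -0.38 and -0.33. IL7R, the interleukin 7 receptor, rose from 454, 501 and 413 to 739, 827 and 802, at 0.79 (SE 0.10). TNFRSF11B, which encodes osteoprotegerin, the decoy receptor that blocks osteoclast formation, rose from 235, 259 and 302 to 451, 472 and 426, at 0.76 (SE 0.13). CSF1, the growth factor of macrophages and osteoclast precursors, rose at 0.24 (SE 0.06, kept in 5 of 6). Of 19 genes of a bone metastasis list, which shares several of these genes, 3 were called higher and 5 lower (median log2 fold change -0.14, 2 to 3 higher and 5 to 8 lower in the fits without 1 library, with 8 lower without siNT replicate 1). CTGF (CCN2), a matricellular protein, fell from 10588, 10102 and 9257 to 6521, 7338 and 7062, at -0.52 (SE 0.07), and DKK1, a secreted WNT antagonist, rose from 3282, 3254 and 2907 to 3790.3, 4155 and 4371, at 0.38 (SE 0.07). The bone-tropism genes CXCR4 and IL11 stood at 0.10 (SE 0.16) and 0.08 (SE 0.07) and were not called.

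The genes of matrix breakdown that were called were all lower. Of 28 matrix proteases and inhibitors, 0 were called higher and 9 lower by DESeq2 (0 higher by edgeR and 3 at an unadjusted p under 0.05, median log2 fold change -0.09, 0 to 1 higher and 7 to 9 lower in the fits without 1 library). After MMP1, the membrane-bound MMP14 fell from 17048, 15932 and 18419.6 to 13394, 12715 and 12219, at -0.42 (SE 0.06). ADAMTS6, a secreted metalloprotease, fell from 146, 167 and 156 to 86.4, 53.1 and 90.1, at -1.03 (SE 0.22). Genes of the urokinase system were lower too: PLAUR, the urokinase receptor, fell from 2038, 1854 and 1933 to 1253, 1339 and 1255, at -0.60 (SE 0.07), and the urokinase inhibitor SERPINB2, at low counts, stood at -1.44 (SE 0.38, kept in 3 of 6). PLAU, the urokinase itself, and PLAT, picked after their values were seen, stood at -0.25 (SE 0.07, kept in 4 of 6) and -0.34 (SE 0.06).

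Mesenchymal genes changed in both directions, and the called epithelial genes were mostly higher. Of 24 regulators and effectors of the epithelial-mesenchymal transition, 4 were called higher and 7 lower (median log2 fold change -0.15, 3 to 6 higher and 4 to 8 lower in the fits without 1 library, with 4 lower without siPHF19 replicate 3). VIM was lower, as above, and TNC, the matrix protein tenascin C, fell from 2599, 3005 and 3376 to 2279.6, 2059 and 2035, at -0.49 (SE 0.09). TAGLN, a smooth muscle actin-binding protein, rose from 50.8, 41.5 and 44.8 to 88.4, 87.3 and 98.5, at 1.00 (SE 0.25). THBS1, thrombospondin 1, rose at 0.40 (SE 0.07), and CDH11, a mesenchymal cadherin, at 0.38 (SE 0.11, kept in 3 of 6). FN1, fibronectin, varied within siNT (5595, 7082 and 9046) and was not called, at -0.29 (SE 0.23). Of 27 epithelial junction and keratin genes, 8 were called higher and 2 lower (median log2 fold change 0.17, 7 to 8 higher and 1 to 2 lower in the fits without 1 library). Besides KRT8 and KRT18, MAL2, a protein of apical transport, rose from 174, 139 and 213 to 315, 349 and 332, at 0.92 (SE 0.16). CLDN1, claudin 1 of tight junctions, rose from 126, 181 and 128 to 286, 263 and 226, at 0.84 (SE 0.17). JUP, plakoglobin, picked after its value was seen, stood at 0.49 (SE 0.07). KRT15 and LAMB3 were the 2 called lower, at -0.83 (SE 0.23, kept in 3 of 6) and -0.53 (SE 0.06). CDH1 read 4.76, 4.61 and 7.63 in siNT and 4.97, 8.26 and 27.6 in siPHF19 and was not tested.

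Chains of the laminin that anchors epithelium were lower. LAMA3 and LAMB3, an alpha and a beta chain of it, fell at -0.51 (SE 0.13, kept in 4 of 6) and -0.53 (SE 0.06), and LAMB3 read 13681, 12550.0 and 13444 in siNT and 8909, 9126 and 9354 in siPHF19. COL17A1, the hemidesmosomal collagen that binds it, fell from 239, 202 and 227 to 132, 132 and 93.7, at -0.90 (SE 0.18). ITGA3 and ITGB3 rose, the latter from 200.83, 228 and 284 to 418, 390.4 and 356, at 0.71 (SE 0.14). Of 24 integrin and laminin genes, 3 were called higher and 5 lower (median log2 fold change -0.03, 2 to 4 higher and 4 to 6 lower in the fits without 1 library). Of 33 collagens and modifying enzymes, 8 were called higher and 6 lower (median log2 fold change 0.10, 6 to 7 higher and 2 to 8 lower in the fits without 1 library, with 2 lower without siNT replicate 3, 3 lower without siPHF19 replicate 3). The fibrillar chains COL5A1 and COL1A1 rose, COL5A1 from 1124, 1219 and 1286 to 2019, 1849 and 1879, at 0.66 (SE 0.08), and COL1A1 at 0.63 (SE 0.11). BMP1, the protease that trims procollagen, rose at 0.50 (SE 0.11). COL6A3 fell at -0.67 (SE 0.16, kept in 5 of 6). Of 19 cadherins and protocadherins, 2 were called higher and 2 lower (median log2 fold change 0.05, 1 to 3 higher and 1 to 2 lower in the fits without 1 library): PCDH7 rose at 0.93 (SE 0.18) and CDH4 and CELSR1 fell at -0.48 (SE 0.08) and -0.41 (SE 0.12, kept in 2 of 6).

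In the WNT and TGF-beta pathways more genes were called higher than lower. Of 41 WNT pathway genes, 10 were called higher and 1 lower (median log2 fold change 0.08, 6 to 9 higher and 0 to 2 lower in the fits without 1 library, with 6 higher without any 1 of siPHF19 replicates 1 and 2). RNF43, which removes WNT receptors from the surface, rose from 59.5, 69.2 and 98.3 to 153, 147 and 144, at 0.98 (SE 0.22). The receptor ROR1 rose from 537, 717 and 719 to 1120.4, 1063 and 1062, at 0.72 (SE 0.11), and DAAM2, an actin regulator downstream of WNT, from 159.6, 225 and 229.9 to 398, 364 and 362, at 0.88 (SE 0.15). APC, a scaffold of the destruction complex, stood at -0.31 (SE 0.10, kept in 1 of 6). Of 41 genes of the TGF-beta and BMP pathway, 7 were called higher and 3 lower (median log2 fold change 0.03, 6 to 7 higher and 1 to 3 lower in the fits without 1 library). The ligands TGFB2, INHBB and BMP4 rose, TGFB2 from 1588, 1816 and 1602 to 2371, 2513 and 2650.0, at 0.59 (SE 0.08), INHBB at 0.66 (SE 0.07) and BMP4 at 0.60 (SE 0.07). The inhibitory SMAD6 rose at 0.61 (SE 0.16, kept in 4 of 6), while SMAD4, the shared partner, and SMURF2, a ubiquitin ligase of the pathway, fell at -0.30 (SE 0.08, kept in 3 of 6) and -0.32 (SE 0.06). BMP6, at low counts, stood at -1.26 (SE 0.42, kept in 0 of 6).

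YAP and TEAD target genes went both ways. Of 29, 7 were called higher and 4 lower (median log2 fold change 0.11, 5 to 9 higher and 4 to 8 lower in the fits without 1 library). F3, tissue factor, rose from 3148, 3207 and 2961 to 4583, 5069 and 5185, at 0.67 (SE 0.07), whereas CTGF and NT5E fell, as given above, and LATS2, a kinase that restrains YAP, fell at -0.43 (SE 0.09). Of 27 Notch genes, 2 were called higher and 4 lower (median log2 fold change 0.03, 1 to 3 higher and 2 to 4 lower in the fits without 1 library). RBPJ, the DNA-binding factor of the pathway, fell from 4431, 5326 and 5255 to 3339, 3337 and 3230.2, at -0.60 (SE 0.07), and its coactivator MAML3 at -0.58 (SE 0.12). The target HEY1 fell at -1.03 (SE 0.35, kept in 1 of 6), and HES1 and the glycosyltransferase LFNG rose at 0.41 (SE 0.12, kept in 3 of 6) and 0.52 (SE 0.11). Of 37 ERK output and immediate early genes, 2 were called higher and 7 lower (median log2 fold change -0.04, 0 to 2 higher and 5 to 11 lower in the fits without 1 library, with 11 lower without siNT replicate 1). HBEGF, a ligand of the EGF receptor, fell from 1509.8, 1434 and 1365 to 827, 937 and 847, at -0.72 (SE 0.08), and AREG, another, rose from 179, 194 and 192 to 264, 291 and 270.3, at 0.55 (SE 0.14, kept in 5 of 6). The AP-1 member FOSL1 fell at -0.41 (SE 0.07) and KLF2 at -0.67 (SE 0.14). MYC and JUN, picked after their values were seen, stood at -0.29 (SE 0.08, kept in 5 of 6) and -0.29 (SE 0.06). Of 46 guidance genes, 3 were called higher and 6 lower (median log2 fold change 0.05, 2 to 3 higher and 6 to 8 lower in the fits without 1 library). The semaphorin SEMA3D fell from 69.1, 122 and 125 to 36.8, 46.0 and 52.9, at -1.22 (SE 0.28), its receptor chain NRP2 from 298, 392 and 359.7 to 226, 186 and 195, at -0.78 (SE 0.15), and ROBO4 at -0.63 (SE 0.07). The ephrins EFNA1 and EFNA5 rose at 0.95 (SE 0.22) and 0.55 (SE 0.10), and the ephrin receptor EPHB3 at 1.01 (SE 0.33, kept in 1 of 6).

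Some cell cycle inhibitors and some genes of the cycle itself rose at the same time. Of 14 CDK inhibitors and D cyclins, 5 were called higher and 0 lower by DESeq2 (1 lower by edgeR and 1 at an unadjusted p under 0.05, median log2 fold change 0.07, 4 to 6 higher and 0 lower in the fits without 1 library). CDKN1B, which encodes p27, rose from 808, 842 and 873 to 1141, 1179 and 1231, at 0.49 (SE 0.08), CDKN2C, p18, at 0.42 (SE 0.09), and CDKN3, a phosphatase of CDKs that peaks in mitosis, at 0.38 (SE 0.09). Of 50 genes of DNA replication, 5 were called higher and 0 lower by DESeq2 (0 lower by edgeR and 3 at an unadjusted p under 0.05, median log2 fold change 0.06, 2 to 8 higher and 0 to 1 lower in the fits without 1 library, with 2 higher without siPHF19 replicate 2, 3 higher without siNT replicate 3, 8 higher without siNT replicate 1). RRM2, the regulated subunit of ribonucleotide reductase, rose from 3561, 3517 and 3463 to 4801, 5435 and 5214, at 0.55 (SE 0.06). Cyclin CCNE2 and the repressor E2F8 rose at 0.45 (SE 0.13, kept in 3 of 6) and 0.51 (SE 0.13, kept in 5 of 6). Of 54 mitotic genes, 6 were called higher and 1 lower (median log2 fold change 0.05, 2 to 11 higher and 0 to 4 lower in the fits without 1 library, with 2 higher without siPHF19 replicate 2, 3 higher without any 1 of siNT replicate 2 and siPHF19 replicate 3, 11 higher without siNT replicate 1). The kinesin KIF20A rose from 2319, 2414 and 2433 to 3308, 3123 and 3054, at 0.41 (SE 0.06). The p53 targets PLK2 and POLH were the 2 called of 26, at 0.55 (SE 0.07) and 0.30 (SE 0.09, kept in 4 of 6, median log2 fold change -0.01, 1 to 3 higher and 0 lower in the fits without 1 library). Of 30 genes of homologous recombination 1 was called, CHEK1, the checkpoint kinase, at -0.27 (SE 0.08, kept in 3 of 6, median log2 fold change -0.04, 0 to 2 higher and 0 to 2 lower in the fits without 1 library, with 2 higher and 2 lower without siNT replicate 1). Of 17 BCL2 family genes, the cell death sensitizer BMF rose from 311, 291 and 322 to 524, 462 and 405, at 0.59 (SE 0.12), and the survival gene MCL1 fell from 5846, 5829 and 6175 to 4749, 4523 and 4705, at -0.35 (SE 0.06). BNIP3, of the same family, fell at -0.35 (SE 0.06), and these 3 were the calls of the list (median log2 fold change -0.02, 1 to 2 higher and 2 lower in the fits without 1 library).

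In the stress responses to misfolded protein and amino acid shortage, called genes were mostly lower. Amino acid genes are induced by the kinases PERK and GCN2 through the factor ATF4, and chaperones of the endoplasmic reticulum mainly through ATF6 and XBP1. Of 41 ATF4 and amino acid genes, 1 was called higher and 10 lower (median log2 fold change -0.09, 1 to 2 higher and 6 to 11 lower in the fits without 1 library, with 6 lower without siPHF19 replicate 1). ASNS, asparagine synthetase, fell from 1403, 1227 and 1192 to 861, 977 and 956, at -0.45 (SE 0.09). CTH, cystathionine gamma-lyase, fell from 393, 381 and 390.2 to 296, 262 and 271, at -0.49 (SE 0.12), and SLC7A11, the cystine transporter, at -0.43 (SE 0.10, kept in 4 of 6). SLC7A5, a leucine transporter, was the 1 called higher, from 6099.6, 6335 and 6210.4 to 7279, 7407 and 7476, at 0.25 (SE 0.05). Of 32 genes of the unfolded protein response, 3 were called higher and 7 lower (median log2 fold change -0.03, 0 to 5 higher and 4 to 10 lower in the fits without 1 library, with 4 lower without any 1 of siNT replicate 2 and siPHF19 replicates 1 and 2). EIF2AK3, which encodes PERK, fell from 631, 651 and 601 to 487, 429 and 439.7, at -0.47 (SE 0.10). PPP1R15A, the phosphatase subunit GADD34, fell from 3817, 3498 and 3037 to 2268, 2398 and 2457, at -0.54 (SE 0.08), and SEL1L, of ER-associated degradation, at -0.37 (SE 0.07). The chaperone HSPA5, picked after its value was seen, stood at -0.24 (SE 0.07, kept in 4 of 6), and DNAJB11 and DERL1 were called higher, at 0.22 (SE 0.07, kept in 1 of 6) and 0.18 (SE 0.06, kept in 1 of 6). The cytosolic chaperones HSP90AA1 and HSPA4 were the 2 called of 20 heat shock genes, HSPA4 at -0.29 (SE 0.05, median log2 fold change -0.01, 0 to 2 higher and 2 to 3 lower in the fits without 1 library, with 2 higher and 3 lower without siNT replicate 1). Hypoxia and glycolysis genes split: of 41, 5 were called higher and 5 lower (median log2 fold change -0.07, 4 to 5 higher and 4 to 9 lower in the fits without 1 library, with 9 lower without siNT replicate 1). ANGPTL4, a lipase inhibitor, rose from 291, 229 and 296 to 514, 527 and 450.5, at 0.87 (SE 0.13), and EGLN3, an oxygen sensor, and SLC2A3, a glucose transporter, at 0.68 (SE 0.13) and 0.50 (SE 0.07). PFKFB3, a regulator of glycolysis, and NDRG1 fell at -0.46 (SE 0.08) and -0.35 (SE 0.09, kept in 5 of 6). Of 28 NRF2 targets, 3 were called higher and 3 lower (median log2 fold change -0.08, 1 to 3 higher and 1 to 3 lower in the fits without 1 library): AKR1B1, an aldose reductase, rose at 0.22 (SE 0.06, kept in 4 of 6), and GCLM, of glutathione synthesis, fell at -0.29 (SE 0.10, kept in 1 of 6).

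Among the subunits of the vacuolar proton pump, ATP6V1E1 stood far from the rest. Of 21 tested, 3 were called higher and 2 lower (median log2 fold change 0.08, 1 to 5 higher and 1 lower in the fits without 1 library). The second called lower, ATP6V0D2, had low counts, 43.7, 39.7 and 53.4 and 21.9, 24.8 and 16.8, and stood at -1.10 (SE 0.37, kept in 0 of 6). ATP6AP1, an accessory subunit, rose from 1990.1, 1792 and 1984 to 2440.5, 2548 and 2371, at 0.35 (SE 0.07), and ATP6V0B and ATP6V1G1 stood at 0.28 (SE 0.08, kept in 1 of 6) and 0.23 (SE 0.08, kept in 1 of 6). Of 45 lysosomal genes, 6 were called higher and 1 lower (median log2 fold change 0.04, 3 to 8 higher and 0 to 1 lower in the fits without 1 library, with 3 higher without any 1 of siNT replicate 2 and siPHF19 replicates 2 and 3). LIPA, the acid lipase that frees cholesterol from lipoproteins, rose from 2781, 2979.6 and 2897 to 4687, 4767 and 4505, at 0.69 (SE 0.06); its annotated span overlaps IFIT1, IFIT2 and IFIT3 on the other strand, which had smaller log2 fold changes of 0.16, 0.41 and 0.14. NPC2, which hands cholesterol out of lysosomes, rose from 2790.2, 2513 and 2665 to 3444, 3491 and 3499, at 0.39 (SE 0.06), and its partner NPC1 fell at -0.23 (SE 0.07, kept in 2 of 6). SPPL2A was the 1 called of 13 intramembrane proteases: SPPL2B, SPPL3 and PSEN2 stood at 0.11, 0.01 and -0.22 (median log2 fold change 0.01, 0 higher and 1 lower in the fits without 1 library). Of 14 iron genes, SLC39A14, a zinc and iron importer, fell from 3649.9, 3581 and 3594 to 1892, 1739 and 1833.2, at -0.99 (SE 0.06), and ferritin FTH1 fell at -0.24 (SE 0.06), while the transferrin receptor TFRC, at -0.12, was not called (median log2 fold change -0.05, 0 higher and 2 to 3 lower in the fits without 1 library).

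The actin cytoskeleton list held more calls lower than higher. Of 66 actin cytoskeleton genes, 5 were called higher and 13 lower (median log2 fold change -0.04, 4 to 10 higher and 3 to 17 lower in the fits without 1 library, with 10 higher without siNT replicate 1, 3 lower without siPHF19 replicate 2, 5 lower without any 1 of siPHF19 replicates 1 and 3, 7 lower without any 1 of siNT replicates 2 and 3). The tropomyosins divided: TPM4 fell from 18537, 18673 and 19199 to 12498, 12750.1 and 12391 and TPM3 at -0.41 (SE 0.06), and TPM1 rose from 1209.8, 1092 and 1109 to 1378, 1428 and 1521, at 0.34 (SE 0.08). The myosin light chain MYL9 and calponin CNN2 rose at 0.52 (SE 0.08) and 0.47 (SE 0.07), and the heavy chain MYH10 fell at -0.37 (SE 0.09, kept in 5 of 6). Of 208 solute carriers, 20 were called higher and 16 lower, and both counts were lower by over 1.5 times without any 1 library but siNT replicate 1, with 8 higher and 7 lower at the fewest (without siPHF19 replicate 2). KLHL4, a member of the ubiquitin ligase adaptor class, fell from 1083, 1230.2 and 1311 to 719, 656 and 670.3, at -0.82 (SE 0.09). Zinc finger genes were called rarely: of 432, 0 were called higher and 6 lower by DESeq2 (2 higher by edgeR and 5 at an unadjusted p under 0.05, median log2 fold change -0.03, 0 higher and 3 to 12 lower in the fits without 1 library, with 3 lower without any 1 of siNT replicate 2 and siPHF19 replicates 2 and 3, 12 lower without siNT replicate 1), with ZNF521 at -0.46 (SE 0.10). The 537 listed zinc finger genes together had 116090 to 123235 normalized counts in a siNT library. Over all tested genes, 7.71% were called at means of 100 to 500 normalized counts and 27.8% above 10000. The part of count level in the few zinc finger calls was not tested. Of 38 proteasome subunits, 2 were called higher and 4 lower (median log2 fold change -0.03, 0 to 6 higher and 2 to 6 lower in the fits without 1 library), PSMD2 falling at -0.30 (SE 0.06). Of 83 helicase and splicing genes, 0 were called higher and 5 lower by DESeq2 (0 higher by edgeR and 0 at an unadjusted p under 0.05, median log2 fold change -0.07, 0 to 1 higher and 1 to 8 lower in the fits without 1 library, with 1 lower without any 1 of siPHF19 replicates 2 and 3, 2 lower without siNT replicate 2, 3 lower without any 1 of siNT replicate 3 and siPHF19 replicate 1, 8 lower without siNT replicate 1), with SF3A3 at -0.27 (SE 0.07). Of 10 tested S100 genes S100A10, the partner of ANXA2, was the 1 called, at 0.23 (SE 0.07, kept in 2 of 6), while ANXA2 fell (median log2 fold change 0.08, 0 to 4 higher and 0 lower in the fits without 1 library, with 4 higher without siNT replicate 1).

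Classes of short transcripts depended on siNT replicate 1. Of 72 genes of oxidative phosphorylation, 2 were called higher and 0 lower by DESeq2 (1 lower by edgeR and 1 at an unadjusted p under 0.05) with all libraries and 21 higher without siNT replicate 1 (0 to 21 higher and 0 lower in the fits without 1 library). The median log2 fold change was 0.08, and NDUFA7 and ATP5G2 stood at 0.35 (SE 0.12, kept in 1 of 6) and 0.21 (SE 0.07, kept in 1 of 6). Of 85 cytosolic ribosomal protein genes, 0 were called higher and 3 lower by DESeq2 (0 higher by edgeR and 0 at an unadjusted p under 0.05, median log2 fold change -0.03, 0 to 7 higher and 1 to 7 lower in the fits without 1 library), and without siNT replicate 1 7 were called higher and 3 lower. RPL17, RPS25 and RPL7L1 stood at -0.27 (SE 0.07, kept in 4 of 6), -0.26 (SE 0.07, kept in 5 of 6) and -0.19 (SE 0.05, kept in 4 of 6). Over all genes with a transcript in the annotation, the median log2 fold change ran from 0.018 in the shortest of the 5 length classes to -0.039 in the longest. Without siNT replicate 1 it ran from 0.079 to -0.099. The part of transcript length in the differences of single genes was not tested.

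A short word was more frequent in the 3′ untranslated regions (UTRs) of genes called lower after siPHF19 than in those of genes not called. This was looked for because siRNAs, like microRNAs, can lower transcripts whose 3′ UTRs match the first bases of their guide strand. Over 3325 hexamers, read on the transcript strand only, occurrences per kilobase in the 3′ UTRs of genes called lower were set against those of genes not called, and the 3 hexamers with the highest ratios were AACTGA (1.545), AAACTG (1.503) and CAAACT (1.472). The fourth, ACAAAC, had a ratio of 1.303. The first 3 overlap in the 8-base word CAAACTGA. AAACTG was present in 63.1% of genes called lower, 42.7% of genes not called and 36.5% of genes called higher, among 11873 tested genes with an annotated 3′ UTR (GENCODE 29, 1 transcript per gene). In the same order, the median 3′ UTR lengths of these groups were 1570, 1096 and 1272 bases. Since the word was picked from these calls, these shares describe the choice and are no test of it. The sites of 5 genes that were called lower are shown with 11 bases before and after, in the order of their fold change, with the 8-base word in capitals.
SEMA3D: ctcaaagtagtCAAACTGAtatatgagatt
AMMECR1: aataaaacaagCAAACTGAagagagacaaa
NEDD4: cttcctttaacCAAACTGAagtacataaag
EIF1: ggaacaaatctCAAACTGAtccatcagtca
EIF2AK3: ggtacttccccCAAACTGAttataggtaac

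These sites lie in the 3′ UTR in the last exon of each gene, at chr7:84997574-84997603 (minus strand, SEMA3D), chrX:110196336-110196365 (minus, AMMECR1), chr15:55828682-55828711 (minus, NEDD4), chr17:41691462-41691491 (plus, EIF1) and chr2:88556921-88556950 (minus, EIF2AK3) in GRCh38. NEDD4, a ubiquitin ligase, and EIF1, a translation initiation factor, were picked after their values were seen. NEDD4 fell from 2522, 2853 and 2641 in siNT to 1373, 1385 and 1269 in siPHF19, at -0.99 (SE 0.07). EIF1 fell from 9826, 8237 and 8712 to 4572, 5124 and 4887, at -0.88 (SE 0.07). AMMECR1 fell from 425, 478 and 466 to 199.6, 215 and 191, at -1.18 (SE 0.13), and holds 6 copies of the 6-base word AAACTG in its 3′ UTR.

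The share of genes called lower grew with the number of AAACTG matches. As the word was picked from these same calls, the shares by match number and by length also describe that choice and are no test of it. It was 3.93% of 6701 genes with none, 6.78% of 2685 with 1, 8.73% of 1237 with 2, 12.5% of 632 with 3 and 12.9% of 618 with 4 or more. The share called higher ran the other way, from 6.25% with none to 3.72% with 4 or more. Genes with more matches also have longer 3′ UTRs, with a median of 603 bases for none and 5626 bases for 4 or more. Within each of 5 ranges of 3′ UTR length the share called lower was higher with a match than without: 8.53% against 4.19% under 500 bases, 9.75% against 3.98% from 1000 to 2000 bases, and 7.42% against 5.13% above 4000 bases. Of 480 genes with CAAACTGA, 84 were called lower (17.5%) and 12 higher (2.50%), and their median log2 fold change was -0.09. Without siNT replicate 1 the share called lower was 26.2% of 462 genes, beside 9.80% of all genes with a 3′ UTR in that fit. Of all genes called lower, 11.8% held CAAACTGA. Some of the genes with the largest falls above the count minimum were not among them: ATP6V1E1, MMP1 and G0S2 held 0 copies of AAACTG in the 3′ UTR and SPPL2A 1.

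**Figure D5:**
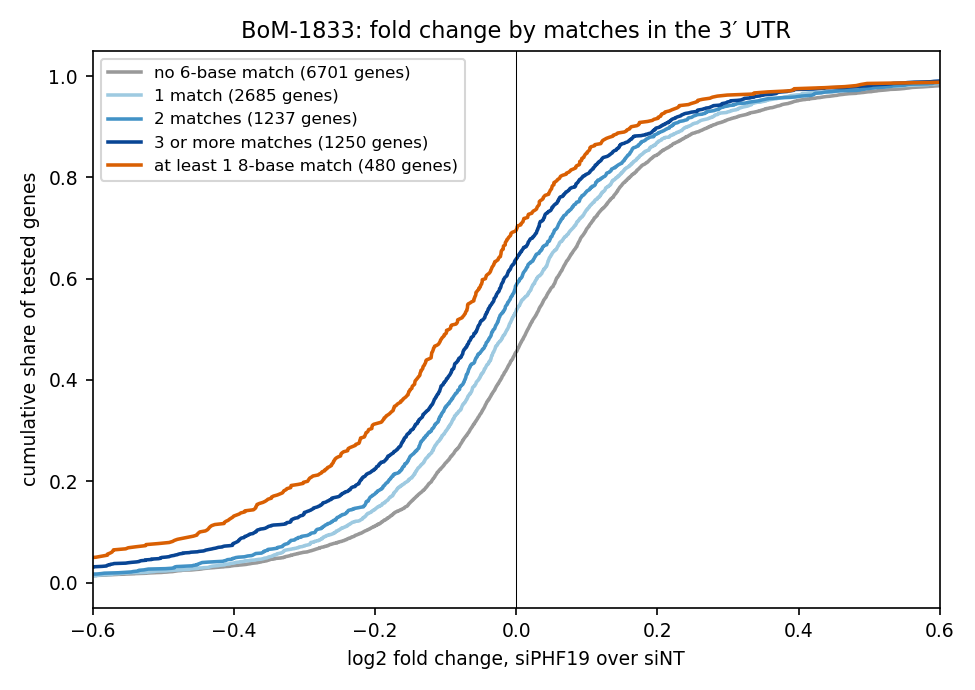
Cumulative share of tested genes by log2 fold change of siPHF19 over siNT, split by the number of matches to the 6-base word in the 3′ UTR, with genes that hold the 8-base word in orange. The curves move to the left as matches increase, from a median of 0.02 with none to -0.06 with 3 or more and -0.09 with the 8-base word. The words were picked from the calls of these same genes.

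PHF19 holds CAAACTGA once, in the coding part of exon 2. The 19 bases that end in this word lie at chr9:120874621-120874639 on the minus strand (GRCh38), and all tested transcripts were compared with them. ATP6V1E1 and SPPL2A were among 77 genes whose best stretch had 4 mismatches. They had the largest falls after PHF19 among called genes with a mean of at least 100 normalized counts, and some genes of fewer counts fell more than SPPL2A. The stretches of PHF19, ATP6V1E1 and SPPL2A are shown, and capitals mark the 8-base word in PHF19 and the mismatched bases in the others.
PHF19: gacttgatgtcCAAACTGA
ATP6V1E1: ATGttgatgtccaaaTtga
SPPL2A: gaTttgatgtTcaGactgG

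The ATP6V1E1 stretch is in the coding part of exon 7, at chr22:17598221-17598239 on the minus strand. Counted from 1 at the 5′ end of the PHF19 stretch, it differs by G1A, A2T, C3G and C16T. The SPPL2A stretch is in the coding part of exon 13, at chr15:50722159-50722177 on the minus strand, and differs by C3T, C11T, A14G and A19G. Of the 6 genes with 2 or 3 mismatches, 0 were called by DESeq2, 3 had an unadjusted p under 0.05 and edgeR called 1. Among them were ZNF862 at -0.44 (SE 0.16) and ATP5E at 0.22 (SE 0.09), the genes with 2 mismatches, both named after their values were seen. Of the 77 genes with 4 mismatches, 7 were called lower and 4 higher, and of 698 genes with 5 mismatches, 54 lower and 29 higher. Over all tested genes the shares were 5.72% lower and 5.21% higher. The stretch was chosen after the hexamer counts were seen. The sequences of the siRNAs were not among the sources used here, and their part in any of these differences was not tested.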

How the data were processed

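RNA of 6 libraries, 3 given siNT and 3 siPHF19, was sequenced as stranded mRNA. Per the submitters' processing notes, STAR, RSEM 1.3.1 and DESeq2 1.46.0 were used with hg38; whether strand was used in counting is not given in the sources used here. The authors deposited normalized counts (a depth-scaled signal), a log2 fold change and an adjusted p-value per gene. All deposited normalized counts were whole multiples of 1 read within 0.01 reads. The recovered reads were tested with DESeq2 1.42.0 (R 4.3.3; Wald test, Benjamini-Hochberg, 0.05), with 0 calls that differ from the authors' deposited table. Genes without an adjusted p were not tested. Alternatives used edgeR 4.0.16 and limma 3.58.1, and the test was checked on simulated data. The members and lists were chosen with earlier results of these data known. Named genes are PHF19, markers, the 12 called genes with the largest fold change in each direction (mean of at least 100 normalized counts, groups not overlapping), the 10 with the largest absolute difference, up to 3 called members per list and direction, and members of lists of 15 or fewer. Some members that the rule names are not reported here. Others are said to be named or picked after their values were seen. Transcripts came from GENCODE 29 and promoters from RefSeq (GRCh38.p14). Close paralogs and genes overlapping on opposite strands (PSMB9 and TAP1, VIM and VIM-AS1, KIF20A and BRD8) may share reads.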

Additional observations from a re-analysis of the deposited data

How the results depend on the processing

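PHF19 stayed lower under every alternative run, with a log2 fold change between -3.20 and -3.16 in the fits of all libraries and between -3.25 and -3.15 with 1 library left out. The count of called genes, 1411, was 1527 with edgeR, 1554 and 1566 with limma on log2(value + 1) and log2(value + 5), 1433 with TMM scaling, 1279 without independent filtering and 1477 with a minimum of 10 reads. Leaving out 1 library at a time gave 746 to 2046 calls. A cut at an absolute log2 fold change of 1 left 69 genes and an adjusted p under 0.01 left 919. With the replicate number as a block, 610 genes were called, 609 of them among the 1411. Same-numbered libraries correlated at -0.346, -0.211 and -0.241 in their deviations from the group means, so no positive pairing by number was seen. These values cannot decide whether same-numbered libraries shared a culture, because the 3 deviations within a group sum to 0. Of 215 called genes named by the rule besides PHF19, 0 changed sign under any of the 13 alternatives. The block ended the call of 78 of them, edgeR of 7, and leaving out a library of 18 to 63. The larger counts without siNT replicate 1 and the smaller ones without other libraries were not traced to a cause. Depth limits genes of few reads: 2.42% of genes below a mean of 50 normalized counts were called, against 27.8% above 10000.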
